A study of Danio rerio with 3 samples.

Results

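T cells of the kidney marrow were set against T cells of the thymus, both taken from zebrafish that carry green fluorescent protein under the promoter of lck, which encodes a kinase of T cells (lck:GFP). The cells compared are those with a transcript of trbc1 (FP236356.1 in the files, ENSDARG00000091233), the constant gene of the receptor's beta chain, and none of the recombinase genes rag1 and rag2, the cytokine receptor gene il2rb, or the proliferation genes mki67 and top2a. Each cell also needed at least 1000 unique molecular identifiers (UMIs; at least 1395 in the marrow), at least 250 genes and at most 10% of its UMIs on mitochondrial genes. The rule was met by 525 of 983 called marrow cells and 322 of 3230 called thymus cells, 847 of 4568 called cells in the series.

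The thymus is where T cell receptor genes are assembled by the RAG recombinase and where immature cells pass a stage with both CD4 and CD8 coreceptors before keeping one of them. Cells that have finished recombination shut off the recombinase genes, change the receptors that steer migration, and leave through blood. In adult zebrafish the kidney marrow is the main site of blood formation and also holds mature T cells that arrived from the thymus. In mammals, sphingosine-1-phosphate receptors under the control of KLF2 draw mature T cells out of the thymus, whereas CXCR4 and CCR9 hold or place them within tissues.

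The study profiled sorted lymphocytes in 3 droplet libraries, 1 each from marrow, thymus and scale, all from lck:GFP fish with no treatment. Marrow and scale cells were sorted as dim for the reporter and thymus cells as bright. The labels give no age, number of fish or line of origin. Each side is therefore 1 library, no test between tissues was possible, and every 95% interval below (exact Poisson for a level, exact binomial for a share or a ratio) covers counting error only. Tissue, library, sort gate and counting software cannot be told apart: the file header of the marrow names Cell Ranger 4, those of the thymus and scale cellranger 6.0.0. The scale library, sorted as dim and counted with the same software as the thymus, is therefore given beside several genes that were higher in the marrow. Fewer cells with a transcript and less transcript per cell cannot be told apart in summed levels.

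The 525 marrow cells held 2145541 UMIs, with a median of 3820 a cell and a range of 1398 to 11473. The 322 thymus cells held 742270 UMIs, with a median of 1894.5 a cell and a range of 1001 to 9040. A median of 905 genes was detected in a marrow cell and 747 in a thymus cell, with median mitochondrial shares of 1.65% in the marrow and 1.12% in the thymus. No barcode was shared between the libraries. A level is the summed UMIs of a gene divided by all UMIs of the cells, per 1000000 (CPM).

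The cells were chosen by measured values, which are given as a description. Among trbc1-positive cells, rag1 (ENSDARG00000052122) was found in 0 of 897 marrow cells (up to 0.410%) and in 86.2% of 3171 thymus cells. An il2rb UMI was found in 38.8% of the 897 marrow cells and 0.788% of the 3171 thymus cells, so this condition removed mainly marrow cells and the rag1 condition mainly thymus cells. An mki67 or top2a UMI was found in 3.23% of the marrow cells and 32.5% of the thymus cells. Next to the limits, 44 marrow and 30 thymus members held exactly 1 trbc1 UMI, and 53 marrow and 18 thymus cells were left out only because they held 0. With 1 rag1 UMI, 0 marrow and 216 thymus cells were left out, and with 1 il2rb UMI 105 marrow and 3 thymus cells. The largest UMI total just under the minimum was 1358 in the marrow and 999 in the thymus.

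Whether shallow cells lacked rag1 more often was checked by depth. Among trbc1-positive thymus cells without il2rb, mki67 or top2a, 11.2% of the 956 cells with 1000 to 1499 UMIs had no rag1 or rag2 UMI (9.26 to 13.4%). The share was 21.1% of the 175 cells with 3000 to 3999 UMIs (15.3 to 27.9%) and 16.9% of the 201 deeper ones (12.01 to 22.8%). The share without rag1 was thus not smaller in deeper cells. The part of cells with missed rag1 transcripts among the members was not tested.

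The T cell label was checked against a list of 13 matched T cell markers. A UMI of 11 of them was present in at least 5% of marrow cells and of 10 of them in at least 5% of thymus cells, with summed levels of 1491 CPM in marrow cells and 3827 CPM in thymus cells. No B cell marker reached 5% of cells on either side. The immunoglobulin gene ighm had 933 UMIs in the marrow, of which 99.1% lay in 1 cell, and 1 UMI in the thymus. Erythroid markers summed to 493 CPM in the marrow cells and 1885 CPM in the thymus cells, against 37700 CPM in marrow barcodes under 100 UMIs, which carry free RNA. One haemoglobin gene, hbba1 (ENSDARG00000089087), was found in 39.6% of marrow cells and 9.94% of thymus cells, with 80.4% of its thymus UMIs in 1 cell. Markers of macrophages or dendritic cells summed to 1150 CPM in marrow cells and 2521 CPM in thymus cells. The part of these cells and of free RNA in the results was not tested.

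Of 31903 features, 4820 had a UMI in at least 5% of the cells of one side, 3261 of them on both sides, 1090 through the marrow alone and 469 through the thymus alone. With 3 UMIs added to each sum, 297 genes (6.16%) were 2-fold or more higher in the marrow and 1389 (28.8%) were 2-fold or more lower, 35% in either direction. A 4-fold difference was passed by 105 genes that were higher and 261 that were lower. With 3000 UMIs or more on both sides, 157 of the 297 higher and 1171 of the 1389 lower genes were still past 2-fold. With the 3 UMIs then added in proportion to the totals, these were 253 of the higher and 936 of the lower genes. Genes near the limit were many: 35 higher and 201 lower genes lay between log2 1 and 1.1, and 47 higher and 219 lower genes between log2 0.9 and 1.

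The median of all 4820 genes was a log2 ratio of -0.56, so the bulk of genes was lower per 1000000 in the marrow. Of the genes past 2-fold, 17.6% were higher in the marrow. Scaled to that median instead, 641 genes were higher and 552 lower, and 53.7% were higher in the marrow. With totals taken without ribosomal, mitochondrial and haemoglobin genes, the share was 28.2%. With the 3 UMIs added in proportion to the totals, the median was -0.47, and 381 genes were higher and 1208 lower. Medians of gene lists below are given as they stand and relative to the median of -0.56. Counts of list genes past 2-fold stand beside shares over all genes of 6.16% higher and 28.8% lower. These counts and medians include genes that passed the filter through the marrow alone or the thymus alone, and are given as a description.

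**Figure D1:**
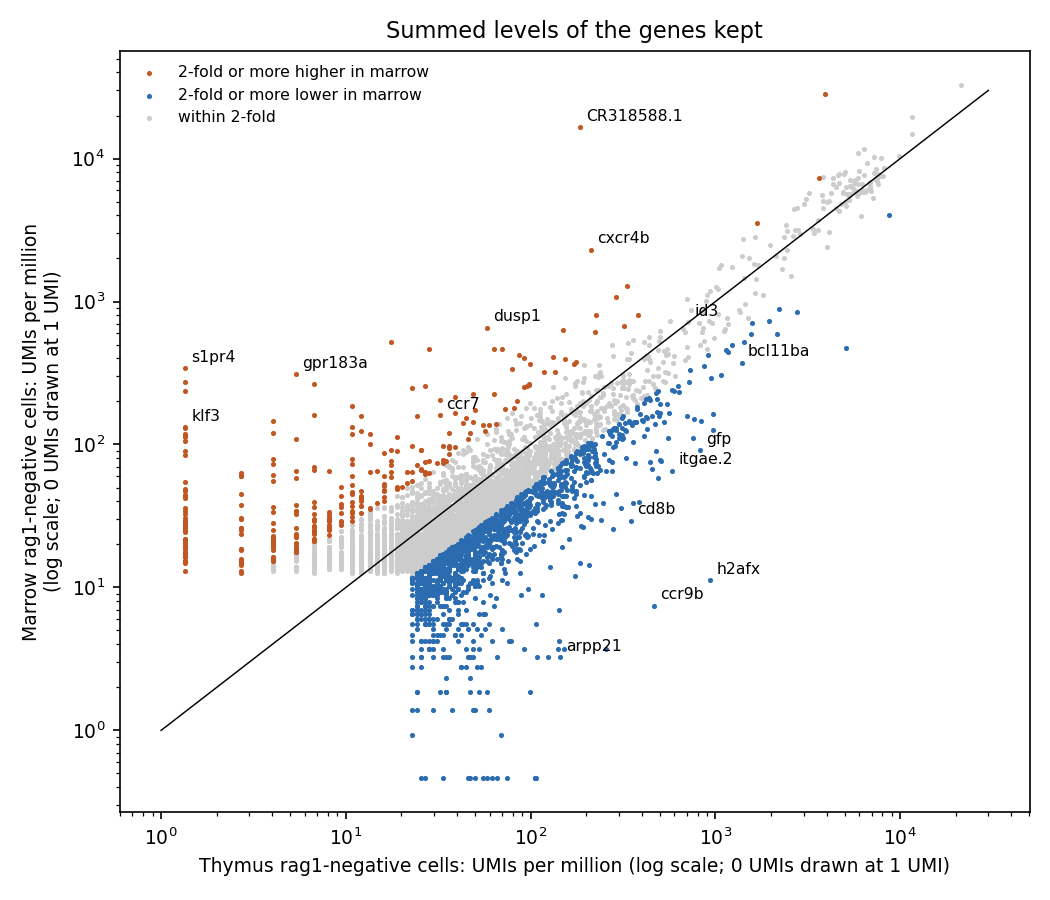
Level of each of the kept genes in marrow (vertical axis) and thymus (horizontal axis) rag1-negative T cells, in UMIs per 1000000 on log axes; the line marks equal levels, and a gene with 0 UMIs is drawn at 1 UMI. Genes 2-fold or more higher in the marrow (297, such as s1pr4 and cxcr4b) lie above the line, and the larger number that were lower (1389, such as h2afx and ccr9b) below it.

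Of the egress and homing list, s1pr4, klf3 and gpr183a were among the 15 genes with the largest ratio of marrow over thymus. The sphingosine-1-phosphate receptor gene s1pr4 (ENSDARG00000074851) stood at 342 CPM in the marrow (318 to 368), with 734 UMIs, and had 0 UMIs in the thymus. Against the limit of 3 counts this is at least 84.6-fold higher in the marrow. The oxysterol receptor gene gpr183a (ENSDARG00000010317), whose mammalian counterpart guides lymphocyte positioning, stood at 311 CPM in marrow cells (288 to 336) and 5.39 CPM in thymus cells (1.47 to 13.8), a 57.8-fold difference (22.5 to 213). Both receptors were close to absent in the thymus cells.

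The Krüppel-like transcription factor genes klf2a, klf3 and klf9 followed the receptors. The gene klf2a (ENSDARG00000042667), counterpart of the mammalian regulator of S1P receptors, stood at 146 CPM in marrow cells (130 to 163) and 4.04 CPM in thymus cells (0.833 to 11.81), or 36.1-fold higher (12.2 to 176). Transcripts of klf3 (ENSDARG00000015495) stood at 133 CPM in the marrow (118 to 149) and had 0 UMIs in the thymus, at least 32.9-fold higher. For klf9 the levels were 55.0 CPM in marrow cells and 1.35 CPM, or 1 UMI, in thymus cells, a ratio of 40.8 (7.19 to 1626).

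The 4 genes of the egress and homing list with the largest ratios, s1pr4, klf2a, klf3 and gpr183a, were also counted by cell. They were picked by their ratio in these same data, so the difference between the sides was set by that choice. The shares describe how the transcripts were spread over cells and are no further support. After every cell was thinned to 1000 UMIs, a UMI of any of the 4 was found in 288 of 525 marrow cells, or 54.9% (50.5 to 59.2%). It was found in 2 of 322 thymus cells, or 0.621% (0.0753 to 2.23%). At least 2 of the 4 genes were found together in 18.9% of marrow cells and 0 of 322 thymus cells. Before thinning, any of the 4 was found in 82.9% of marrow cells and 1.86% of thymus cells, at median depths of 3820 and 1894.5 UMIs. As background, haemoglobin-rich barcodes thinned alike held none of these transcripts in 13 marrow barcodes (up to 24.7% for each gene, median 7088 UMIs). In 5 thymus barcodes (median 1267 UMIs) there was a klf3 UMI in 1 and no UMI of the other 3 genes.

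These genes did not behave alike in the scale. In the 168 scale cells that met the same rule, s1pr4 had 1 UMI (1.81 CPM), klf2a and klf3 had 0, and gpr183a stood at 116 CPM. For s1pr4, klf2a and klf3 the scale level was thus near that of the thymus, which shares its counting software, and for gpr183a it lay between thymus and marrow. The part of the software in the 3 genes was not tested. In marrow barcodes under 100 UMIs, s1pr4 stood at 197 CPM, gpr183a at 265, klf2a at 105 and klf3 at 118 CPM. For s1pr4, gpr183a and klf2a this was below the interval of the marrow cells. For klf3 it was at the lower end of that interval (118 to 149).

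Other members of the egress and homing list lay on either side. Of 38 matched features 22 passed the filter, of which 8 were higher, 4 lower and 10 within 2-fold, and 5 features had no UMI. Among the 8, at least s1pr4, klf3, gpr183a and klf2a passed through the marrow alone, where they are high. The count of higher genes is therefore given as a description. The list's median log2 ratio was 0.02, or 0.58 relative to the median of all genes. The homing receptor ccr7 (ENSDARG00000044561) stood at 161 CPM in marrow cells and 32.3 CPM in thymus cells, 4.97-fold higher (3.29 to 7.87), and at 107 CPM in the scale. The receptor s1pr1, which carries egress in mice, had 0 UMIs on both sides. The receptor s1pr2 was lower in the marrow, at 3.73 CPM against 25.6 CPM in the thymus, as was klf12a at 6.53 CPM against 52.5 CPM. The actin regulator coro1a was also lower, at 726 CPM in marrow cells and 1959 CPM in thymus cells, a ratio of 0.370 (0.345 to 0.398).

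Less different were foxo1a, il7r and p2rx1 of the same list. The factor foxo1a, upstream of KLF2 and IL-7 receptor genes in mouse T cells, stood at 76.9 CPM in marrow cells and 74.1 CPM in thymus cells, a ratio of 1.04 (0.761 to 1.44). The cytokine receptor il7r was lower in the marrow but within 2-fold, at 131 CPM in marrow cells and 185 CPM in thymus cells. The ATP receptor p2rx1 stood at 114 CPM in marrow cells and 109 CPM in thymus cells, a ratio of 1.05 (0.811 to 1.36). For foxo1a and p2rx1 no difference was detectable at this depth on the total-UMI scale.

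**Figure D2:**
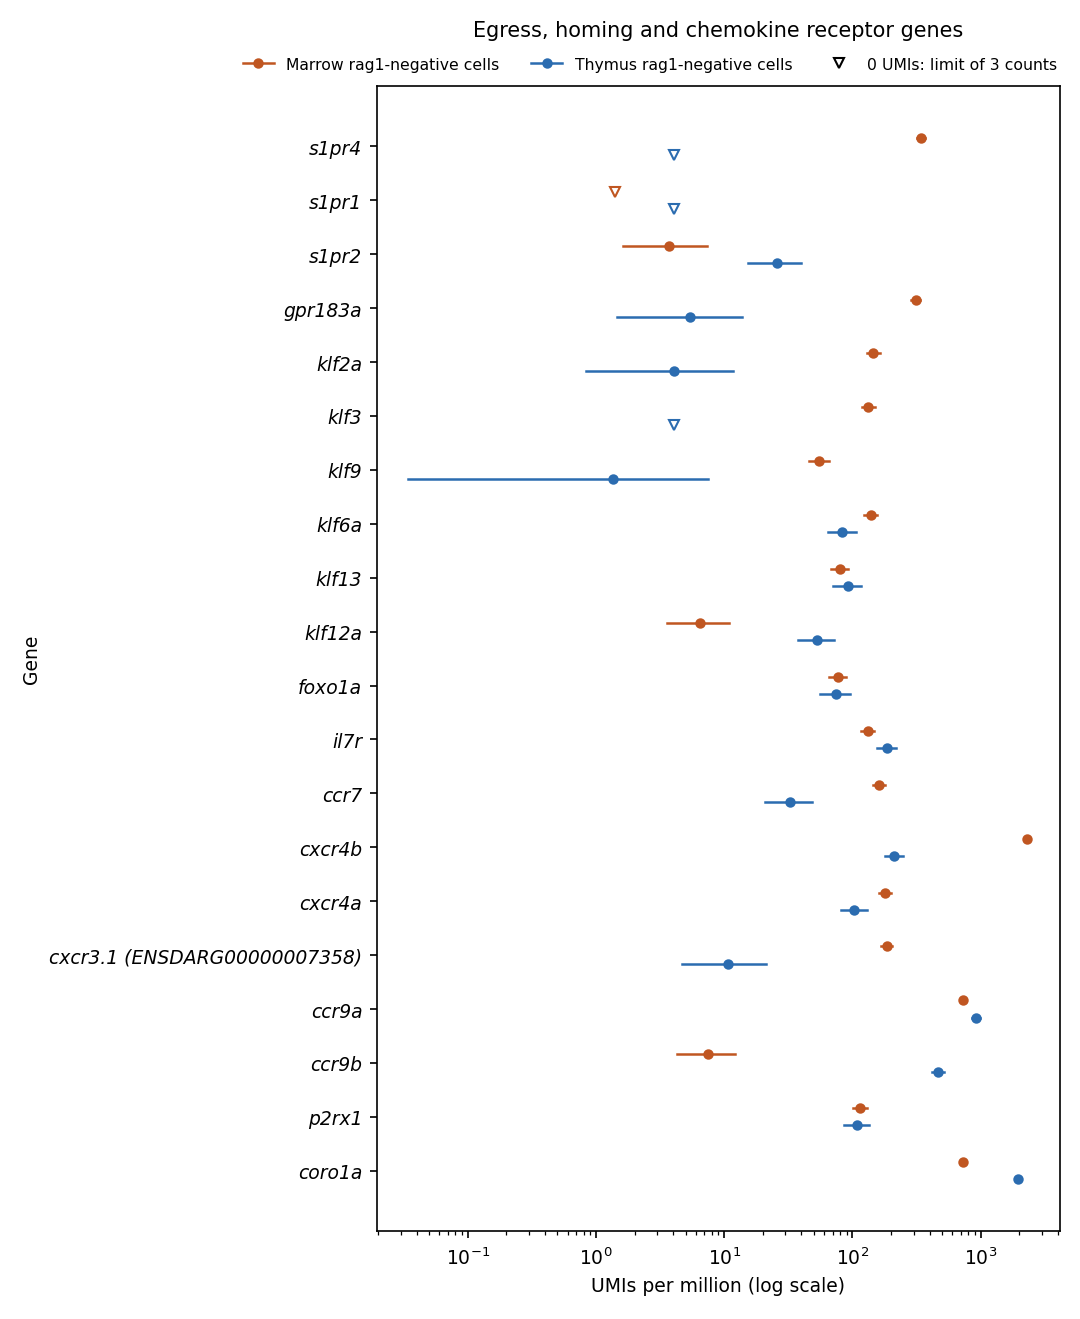
Levels of egress, homing and chemokine receptor genes in marrow (orange, upper point of each pair) and thymus (blue, lower point) rag1-negative T cells, in UMIs per 1000000 on a log axis, with exact Poisson 95% intervals; a triangle marks 0 UMIs at the limit of 3 counts. s1pr4, gpr183a, klf2a, klf3 and cxcr4b lie far to the right in the marrow, ccr9b lies far to the right in the thymus, and foxo1a and p2rx1 overlap.

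Chemokine receptors divided the cells as well. The receptor cxcr4b (ENSDARG00000041959), counterpart of the mammalian CXCL12 receptor that retains cells in marrow, stood at 2307 CPM in marrow cells and 212 CPM in thymus cells, 10.9-fold higher (9.30 to 12.9). It stood at 2157 CPM in the scale and at 1396 CPM in marrow barcodes under 100 UMIs. Its paralogue cxcr4a differed less, at 179 CPM in marrow cells and 104 CPM in thymus cells. The receptor gene cxcr3.1 (ENSDARG00000007358), of the family that draws effector T cells to inflamed tissue in mammals, stood at 186 CPM in marrow cells and 10.8 CPM in thymus cells, 17.3-fold higher (8.67 to 40.2), and at 39.7 CPM in the scale.

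The paralogues of the receptor for the thymic chemokine CCL25 went apart. Transcripts of ccr9b (ENSDARG00000099738) stood at 7.46 CPM in marrow cells (4.26 to 12.1) and 466 CPM in thymus cells (418 to 518), so the thymus exceeded the marrow 62.5-fold (37.9 to 111). Transcripts of ccr9a stood at 735 CPM in marrow cells and 917 CPM in thymus cells, a ratio of 0.801 (0.731 to 0.877). Of the 26 matched chemokine receptors, 7 passed the filter, with 3 higher, 1 lower and 3 within 2-fold. Over all genes 6.16% were higher and 28.8% lower. A high ccr9a level together with a low ccr9b level was seen in the marrow, and a high level of both in the thymus.

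Chemokine ligand genes passed the filter through the marrow alone. Of 49 matched ligands, 3 passed, and 25 had no UMI. The gene ccl36.1 (ENSDARG00000105263) stood at 275 CPM in the marrow and had 0 UMIs in the thymus, ccl38.6 stood at 113 CPM in the marrow with 0 UMIs in the thymus, and ccl34b.4 at 263 CPM in the marrow with 6.74 CPM in the thymus. They lay in few marrow cells, with a UMI of ccl36.1 in 8% and of ccl38.6 in 5.33% of them, and 25.2% of the ccl38.6 UMIs in 1 cell. Free RNA of the marrow held more of each, at 440, 161 and 664 CPM for ccl36.1, ccl38.6 and ccl34b.4, so their level in T cells is uncertain. The thymic ligand ccl25a had 0 UMIs in the marrow and 111 in the thymus, of which 90.1% lay in 1 cell.

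Integrins, the adhesion receptors that bind T cells to epithelium and matrix, differed gene by gene. The alpha E subunit gene itgae.2 (ENSDARG00000057787), whose mammalian counterpart binds epithelial cadherin, stood at 65.7 CPM in marrow cells and 582 CPM in thymus cells, so the thymus level was 8.86-fold higher (7.31 to 10.8). Its partner subunit itgb7 stood at 4.19 CPM in marrow cells and 76.8 CPM in thymus cells, 18.3-fold higher in the thymus (8.998 to 42.1). The collagen-binding subunit itga1 stood at 62.9 CPM in marrow cells and 2.69 CPM in thymus cells, 23.4-fold higher in the marrow (6.34 to 195), and itga4 at 33.1 CPM in marrow cells and 9.43 CPM in thymus cells. Both subunits of the epithelial pair were thus lower in marrow cells, and the alpha subunits itga1 and itga4 higher. In the scale, itgae.2 stood at 459 CPM, itgb7 at 37.9 CPM, itga1 at 5.42 CPM and itga4 at 1.81 CPM (1 UMI). By ratio each was nearer to the thymus than to the marrow. The levels of itgae.2, itgb7 and itga1 lay between marrow and thymus, and that of itga4 below both. The part of the counting software was not tested. Of 35 matched integrin genes, 6 passed the filter and 14 had no UMI.

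Coreceptor transcripts were lower in the marrow over all members. The gene cd4-1 (ENSDARG00000070668) stood at 192 CPM in marrow cells and 503 CPM in thymus cells, and cd4-2.2 at 37.3 CPM in marrow cells and 97.0 CPM in thymus cells. The gene cd8a (ENSDARG00000044797) stood at 27.03 CPM in marrow cells and 187 CPM in thymus cells, and cd8b (ENSDARG00000058682) at 29.4 CPM in marrow cells and 350 CPM in thymus cells. For cd8b the thymus exceeded the marrow 11.9-fold (9.03 to 15.97), and for cd4-1 2.62-fold (2.27 to 3.03). With 3000 UMIs or more on both sides the log2 ratio was -3.47 for cd8b and -1.93 for cd8a, but -0.19 for cd4-1 and -0.16 for cd4-2.2, against -1.39 for both over all members. The lower level of the cd4 genes was thus not seen in the deeper cells.

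After thinning to 1000 UMIs, 13.5% of marrow cells and 22.7% of thymus cells held cd4-1 without cd8a or cd8b. The cd8 genes without cd4-1 were found in 5.14% of marrow cells (3.42 to 7.39%) and 22.98% of thymus cells (18.5 to 28.0%). Both kinds were found in 0 of 525 marrow cells (up to 0.700%) and 11.5% of thymus cells (8.22 to 15.5%). Neither was found in 81.3% of marrow cells and 42.9% of thymus cells. In rag1-positive thymus cells chosen otherwise alike, 1800 in number, both kinds were found in 55.2% and neither in 14.8%.

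The shares move with depth. Unthinned, cd4-1 alone was found in 32.6% of marrow cells and 25.8% of thymus cells, and neither in 58.5% of marrow cells and 28.3% of thymus cells. In the 405 marrow and 71 thymus cells with 3000 UMIs or more, thinned to 3000, cd4-1 alone was found in 29.6% of marrow cells (25.2 to 34.3%) and 23.9% of thymus cells (14.6 to 35.5%). No order between marrow and thymus is therefore read from the cd4-1 share, while the cd8 share was lower in the marrow at each depth, at 6.91% of marrow cells and 31.0% of thymus cells with 3000 UMIs. As background, 0 of 13 haemoglobin-rich marrow barcodes held a cd4-1 UMI and 1 of them a cd8a UMI. Among 5 such thymus barcodes, 2 held a cd8b UMI and 3 a trbc1 UMI, and the part of free RNA and doublets in the thymus shares was not tested.

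**Figure D3:**
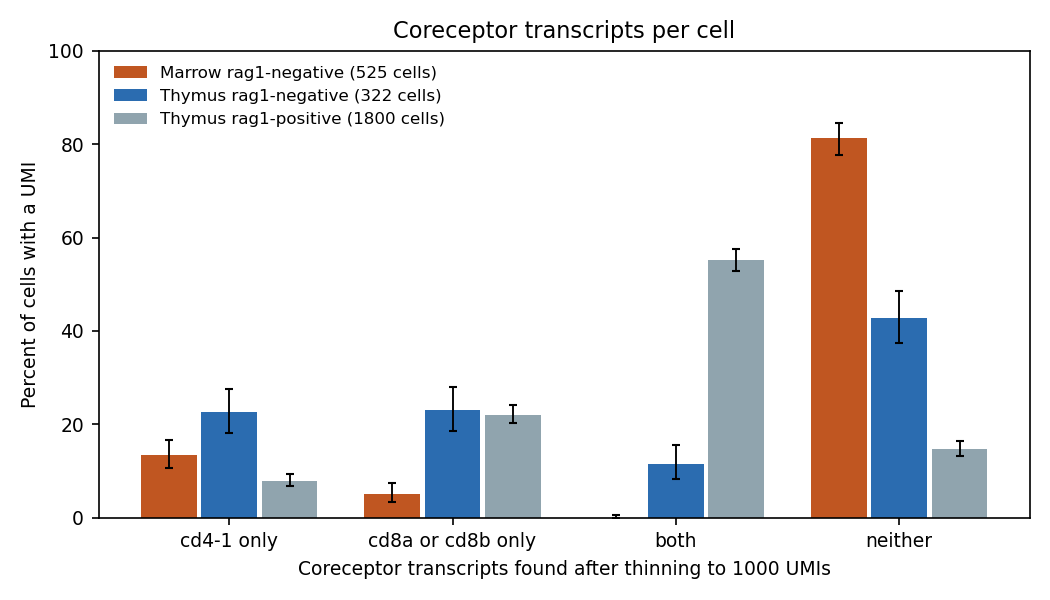
Percent of cells with a UMI of cd4-1 only, of cd8a or cd8b only, of both or of neither after thinning to 1000 UMIs, with exact binomial 95% intervals, in marrow rag1-negative (525), thymus rag1-negative (322) and thymus rag1-positive (1800) T cells. Neither was found in 81.3% of the marrow cells, and both in 0% of marrow, 11.5% of thymus rag1-negative and 55.2% of thymus rag1-positive cells.

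Signalling genes next to the T cell receptor lay near the shares over all genes, which were 6.16% higher and 28.8% lower. Of 12 genes that passed, 1 was higher, 3 lower and 8 within 2-fold, with a median log2 of -0.46, or 0.10 relative to all genes. The kinase gene zap70, which starts the receptor's signal, stood at 236 CPM in marrow cells and 486 CPM in thymus cells, the adaptor gene skap1 at 139 CPM in marrow cells and 470 CPM in thymus cells, and the adaptor gene grap2b at 275 CPM in marrow cells and 717 CPM in thymus cells. The costimulatory receptor gene cd28 was the one that was higher, at 71.3 CPM in marrow cells and 17.5 CPM in thymus cells, 4.07-fold (2.31 to 7.82), with 34.3 CPM in the scale. The trbc1 transcript, which chose the cells, stood at 1526 CPM in marrow cells and 2786 CPM in thymus cells.

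The reporter and its parent gene were both lower in the marrow, which was gated as dim. Transcripts of gfp stood at 91.8 CPM in marrow cells (79.4 to 106) and 824 CPM in thymus cells (760 to 892), a ratio of 0.111 (0.0944 to 0.131). The fish's own lck (ENSDARG00000102525) had 127 CPM in marrow cells (112 to 143) and 248 CPM in thymus cells (213 to 286), a ratio of 0.511 (0.423 to 0.620). With 3000 UMIs or more on both sides the ratio was 0.141 for gfp and 0.763 for lck, and scaled to the median gene it was 0.164 for gfp and 0.755 for lck. In the scale, also gated as dim, gfp stood at 92.1 CPM and lck at 95.7 CPM.

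Genes of immature thymocytes were low in the marrow. Of 23 matched features 13 passed the filter, with 0 higher and 9 lower, beside 6.16% higher and 28.8% lower over all genes. Their median log2 was -2.71, or -2.15 relative to all genes. Among the 13, at least ccr9b, cyldb, arpp21, rorc and tcf12 passed through the thymus alone, where they are high. The count and median are therefore given as a description. The phosphoprotein gene arpp21 (ENSDARG00000061081), abundant in immature thymocytes of mice, stood at 3.26 CPM in marrow cells (1.31 to 6.72) and 144 CPM in thymus cells (118 to 174), 44.2-fold higher in the thymus (20.7 to 113). The nuclear receptor gene rorc (ENSDARG00000087195), which prolongs survival of thymocytes with both coreceptors in mice, stood at 3.73 CPM in marrow cells and 140 CPM in thymus cells, 37.6-fold higher in the thymus (18.4 to 89.3). The gene dclre1c, encoding the nuclease that opens hairpins during receptor gene assembly, stood at 1.86 CPM in marrow cells and 57.9 CPM in thymus cells. The genes xrcc5, xrcc6 and prkdc of general DNA end joining differed less, and prkdc stood at 21.0 CPM in marrow cells and 32.3 CPM in thymus cells.

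Both arpp21 and rorc were higher still in the rag1-positive thymus cells, at 720 CPM for arpp21 and 712 CPM for rorc. Cells with an arpp21 UMI made up 22.4% of the thymus members and 1.14% of the marrow members. Without them, 250 thymus and 519 marrow cells remained, and 284 genes were higher and 1500 lower in the marrow.

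Transcription factors of the T cell lineage were lower in the marrow in 16 of the 26 genes that passed, higher in 1 and within 2-fold in 9. Over all genes 28.8% were lower and 6.16% higher. The median log2 of these factors was -1.44, or -0.88 relative to all genes, and with that scaling 11 were lower and 3 higher. The genome organiser gene satb1b (ENSDARG00000062621) stood at 76.4 CPM in marrow cells and 507 CPM in thymus cells, 6.63-fold higher in the thymus (5.50 to 8.01). The lineage commitment factor bcl11ba stood at 373 CPM in marrow cells and 1388 CPM in thymus cells, tcf12 at 4.19 CPM in marrow cells and 78.1 CPM in thymus cells, gata3 at 21.9 CPM in marrow cells and 160 CPM in thymus cells, and runx3 at 73.6 CPM in marrow cells and 365 CPM in thymus cells. The helper lineage factor zbtb7b stood at 23.3 CPM in marrow cells and 68.7 CPM in thymus cells, and tcf7, needed for T cell identity in mice, at 46.1 CPM in marrow cells and 122.6 CPM in thymus cells.

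A few factors stood level. The inhibitor of E proteins id3, which is induced by T cell receptor signals in mice, stood at 718 CPM in marrow cells and 711 CPM in thymus cells, a ratio of 1.01 (0.913 to 1.12), against 180 CPM in rag1-positive thymus cells. The factor foxp1b stood at 53.1 CPM in marrow cells and 35.0 CPM in thymus cells, and ikzf1 at 112 CPM in marrow cells and 147 CPM in thymus cells. The orphan receptor gene rorab was the one higher gene of this list, at 25.6 CPM in marrow cells and 8.08 CPM in thymus cells.

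**Figure D4:**
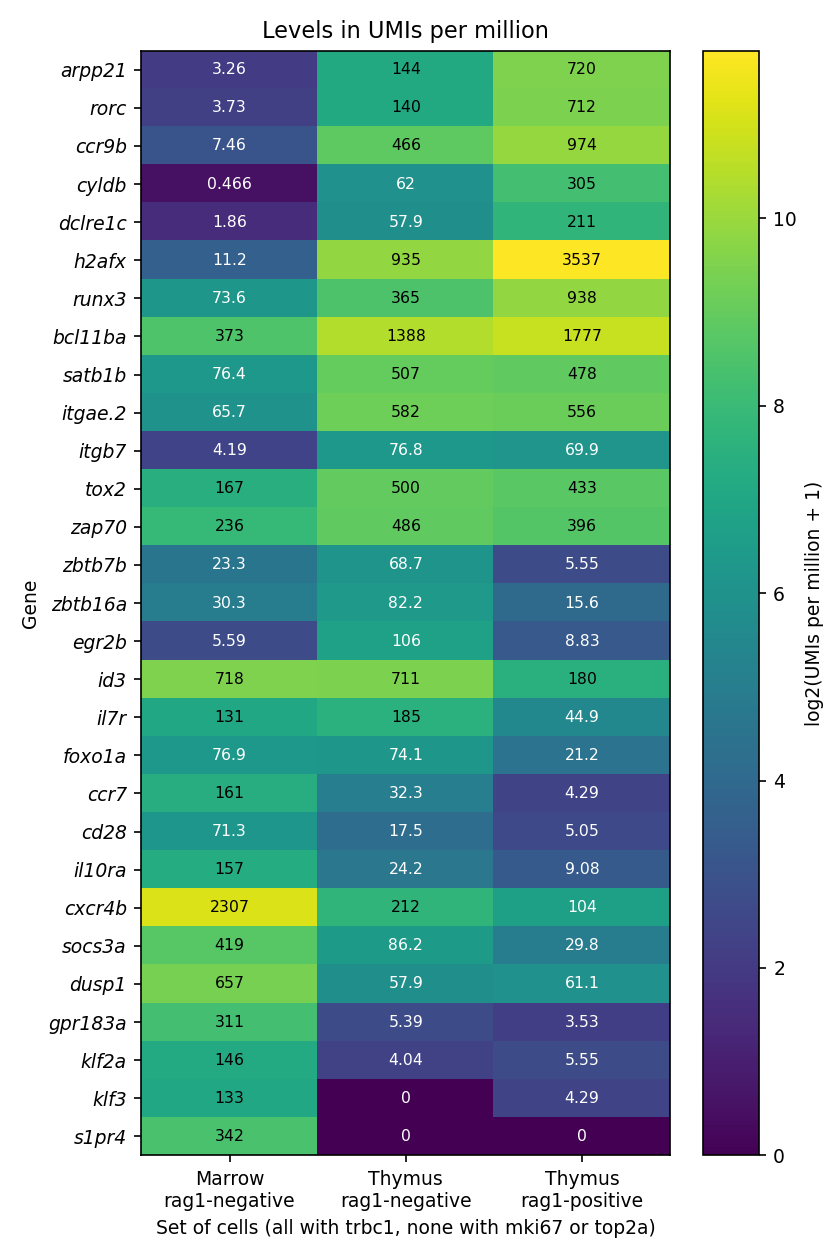
Levels in UMIs per 1000000 (printed in each cell, colour on a log2 scale) of 29 genes in marrow rag1-negative, thymus rag1-negative and thymus rag1-positive T cells. From arpp21 (3.26, 144 and 720) to s1pr4 (342, 0 and 0) the marrow and the rag1-positive thymus cells lie at opposite ends for many rows, while satb1b, itgae.2 and tox2 were alike in both thymus sets and id3 and foxo1a alike in both rag1-negative sets.

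Within the thymus, the rag1-positive and rag1-negative levels place several genes beside the marrow values. The gene cd28 stood at 71.3 CPM in the marrow, 17.5 CPM in the thymus members and 5.05 CPM in rag1-positive thymus cells. The receptor gene il10ra stood at 157 CPM in the marrow, 24.2 CPM in the thymus members and 9.08 CPM in rag1-positive thymus cells. For ccr7 the levels were 161, 32.3 and 4.29 CPM in the same order. By contrast egr2b, a target of strong T cell receptor signals in mice, was highest in the thymus members, at 5.59 CPM in the marrow, 106 CPM in the thymus members and 8.83 CPM in rag1-positive thymus cells.

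Early response genes, which switch on within minutes of a signal or of stress, lay in both directions. Of 38 that passed, 10 were higher, 9 lower and 19 within 2-fold, beside 6.16% higher and 28.8% lower over all genes. Their median log2 was 0.27, or 0.83 relative to all genes. The phosphatase gene dusp1 (ENSDARG00000100515), which turns off MAP kinases, stood at 657 CPM in marrow cells and 57.9 CPM in thymus cells, 11.3-fold higher (8.37 to 15.7). The AP-1 subunit gene fosab stood at 467 CPM in marrow cells and 63.3 CPM in thymus cells, 7.38-fold higher (5.51 to 10.1), and fosb at 143 CPM in marrow cells and 48.5 CPM in thymus cells. In the scale, dusp1 stood at 1231 CPM and fosab at 419 CPM.

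Other genes of the list were lower in the marrow. Transcripts of egr1 stood at 119 CPM in marrow cells and 299 CPM in thymus cells, egr2b at 5.59 CPM in marrow cells and 106 CPM in thymus cells, and nr4a2b at 5.59 CPM in marrow cells and 43.1 CPM in thymus cells. For nr4a1 the levels were 33.6 CPM in marrow cells and 64.7 CPM in thymus cells, within 2-fold, and the AP-1 subunit jun was lower as well, at 11.2 CPM in marrow cells and 70.1 CPM in thymus cells. The dual phosphatase gene dusp6 stood at 48.9 CPM in marrow cells and 167 CPM in thymus cells. Within one list, dusp1, fosab and fosb were thus higher in the marrow and egr1, egr2b, nr4a2b, jun and dusp6 lower.

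Cytokine signalling genes had 4 higher and 3 lower of 19 that passed, with a median log2 of 0.27, or 0.83 relative to all genes. The shares over all genes were 6.16% higher and 28.8% lower. The feedback inhibitor gene socs3a stood at 419 CPM in marrow cells and 86.2 CPM in thymus cells, 4.87-fold higher (3.77 to 6.37). The signal transducer gene stat4 stood at 18.6 CPM in marrow cells and 1.35 CPM, or 1 UMI, in thymus cells, but at 34.9 CPM in free RNA of the marrow, so its level in T cells is uncertain. Among receptors, il10ra was 6.48-fold higher in the marrow (4.04 to 11.1), and the gene il12rb2l stood at 66.6 CPM in marrow cells and 6.74 CPM in thymus cells, 9.89-fold higher (4.14 to 30.9). In the scale, socs3a stood at 509 CPM, il10ra at 107 CPM and il12rb2l at 39.7 CPM. The receptor gene il23r, used by interleukin-17-producing cells in mammals, was lower at 4.66 CPM in marrow cells and 33.7 CPM in thymus cells. Of 90 matched cytokine and receptor features, 18 passed and 40 had no UMI.

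Genes of the interferon response lay in both directions: 4 of 19 that passed were higher, 2 lower and 13 within 2-fold. Over all genes 6.16% were higher and 28.8% lower. The median log2 was 0.27, or 0.83 relative to all genes. This list shares stat1b and stat2 with the cytokine signalling list, so the lists are not separate. The signal transducer gene stat2 stood at 175 CPM in marrow cells and 49.8 CPM in thymus cells, 3.51-fold higher (2.50 to 5.06), and stat1b at 34.5 CPM in marrow cells and 5.39 CPM in thymus cells. The regulator gene irf7 stood at 26.6 CPM in marrow cells and 6.74 CPM in thymus cells. The guanylate-binding protein gene gbp1 was lower, at 28.9 CPM in marrow cells and 78.1 CPM in thymus cells, and ifi30, a thiol reductase of antigen processing, at 50.3 CPM in marrow cells and 132 CPM in thymus cells. Members of the fish gig2 family, first described as virus-induced in fish cells, were among the 15 most different genes: gig2i had 116 CPM in the marrow and gig2h 84.4 CPM in the marrow, each with 0 UMIs in the thymus. In the scale gig2i stood at 27.1 CPM and gig2h at 3.61 CPM, and in free RNA of the marrow at 117 CPM for gig2i and 76.1 CPM for gig2h, close to the levels in marrow cells.

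Effector transcripts were counted in the marrow cells although il2rb-positive cells had been left out. The granzyme gene gzmk (ENSDARG00000028780) stood at 337 CPM in marrow cells and 79.5 CPM in thymus cells, 4.24-fold higher (3.25 to 5.63), with 83.0 CPM in the scale. The related gzma stood at 41.9 CPM in marrow cells and 1.35 CPM, or 1 UMI, in thymus cells. The T-box factor tbx21, which drives type 1 effector cells in mammals, stood at 14.9 CPM in marrow cells and 2.69 CPM in thymus cells. The protease gene ctsc, which activates granzymes, was lower, at 15.4 CPM in marrow cells and 87.6 CPM in thymus cells, where 44.6% of its UMIs lay in 1 cell. The NK-lysin gene nkl.1 had 473 UMIs in 4.19% of marrow cells and 0 in the thymus, under the filter of 5%. In free RNA of the marrow gzmk stood at 283 CPM, gzma at 23.6 CPM, tbx21 at 10.8 CPM and nkl.1 at 249 CPM, against 220 CPM of nkl.1 in the marrow cells, and the part of free RNA in these levels was not tested. Of 29 matched features of the cytotoxic list 6 passed, with 3 higher and 2 lower, beside 6.16% higher and 28.8% lower over all genes.

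Without the cells that held a UMI of a granule gene, 199 marrow and 297 thymus cells remained, and 369 genes were higher and 1271 lower in the marrow. Of the 297 higher genes 268 were still past 2-fold, and of the 1389 lower genes 1102.

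Regulatory and innate-like T cell genes differed less evenly. The paralogues foxp3a and foxp3b, counterparts of the mammalian regulatory T cell factor, stood at 83.0 CPM and 59.2 CPM in the marrow, against 57.9 CPM and 78.1 CPM in the thymus. The ratio was 1.43 for foxp3a (1.02 to 2.05) and 0.758 for foxp3b (0.551 to 1.05), both within 2-fold. The costimulatory receptor gene tnfrsf9a stood at 39.6 CPM in marrow cells and 10.8 CPM in thymus cells, and the ligand gene tnfsf14 at 34.02 CPM in the marrow with 0 UMIs in the thymus. Free RNA of the marrow held more tnfsf14, at 66.1 CPM. Of the innate-like list 9 genes passed, with 0 higher and 5 lower, beside 6.16% higher and 28.8% lower over all genes. Scaled to the median of all genes, 2 were higher and 4 lower. Besides rorc, gata3 and il23r, the 5 lower genes were id2a and zbtb16a. The level of id2a was 24.2 CPM in marrow cells and 80.8 CPM in thymus cells, and that of zbtb16a 30.3 CPM in marrow cells and 82.2 CPM in thymus cells. The delta constant gene trdc stood at 35.4 CPM in marrow cells and 49.8 CPM in thymus cells, within 2-fold.

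Cell cycle and chromatin genes were mostly lower in the marrow, among members without a UMI of mki67 or top2a. That condition is weaker in the thymus, with a median of 1894.5 UMIs a cell against 3820 in the marrow. Of trbc1-positive cells, 32.5% in the thymus and 3.23% in the marrow held such a UMI. The part of cycling cells left among the members was not tested. Of the DNA replication list 23 genes passed, with 0 higher and 21 lower, beside 6.16% higher and 28.8% lower over all genes. The median log2 was -2.59, or -2.03 relative to all genes. Among the 23, at least tk1, hells and chaf1a passed through the thymus alone, where they are high. The count and median are therefore given as a description. The clamp gene pcna stood at 38.2 CPM in marrow cells and 222 CPM in thymus cells, the helicase subunit mcm2 at 8.86 CPM in marrow cells and 88.9 CPM in thymus cells, and the thymidine kinase gene tk1 at 0.466 CPM, or 1 UMI, in marrow cells and 49.8 CPM in thymus cells. The 2 other replication genes lay within 2-fold once 3 UMIs were added: rpa1 at 13.98 CPM in marrow cells and 18.9 CPM in thymus cells, and the polymerase subunit pole at 21.4 CPM in marrow cells and 8.08 CPM in thymus cells, a ratio of 2.65 (1.13 to 7.60) without the addition. The 3 mitosis genes that passed were all lower, among them the tubulin regulator stmn1a at 14.4 CPM in marrow cells and 207 CPM in thymus cells.

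Among histones and chromatin proteins 16 of 26 were lower, 1 was higher, and the median log2 was -1.48, or -0.92 relative to all genes. Over all genes 28.8% were lower and 6.16% higher. The histone variant gene h2afx (ENSDARG00000029406), marked at DNA breaks, stood at 11.2 CPM in marrow cells (7.17 to 16.6) and 935 CPM in thymus cells (867 to 1007), so the thymus exceeded the marrow 83.6-fold (55.7 to 131). It stood at 3537 CPM in rag1-positive thymus cells and 9.03 CPM in the scale. The variant gene h2afvb stood at 112 CPM in marrow cells and 757 CPM in thymus cells, and the chromatin protein gene hmgb2b at 67.6 CPM in marrow cells and 451 CPM in thymus cells. The paralogue h2afx1 stood at 187 CPM in marrow cells and 178 CPM in thymus cells, within 2-fold.

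Ribosomal protein transcripts made up a larger part of the marrow UMIs. Cytosolic ribosomal protein genes summed to 478429 CPM in marrow cells and 402363 CPM in thymus cells, 1.19-fold. Of the 87 that passed 81 lay within 2-fold, and their median log2 was 0.18, or 0.74 relative to all genes. The largest difference toward the marrow among them, rpl26 (ENSDARG00000102317) at 409 CPM in marrow cells and 132 CPM in thymus cells, concerns a gene counted under 2 identifiers, between which reads could be split. Translation factors were 0 higher and 14 lower of 54, beside 6.16% higher and 28.8% lower over all genes. Their median log2 was -0.40, or 0.16 relative to all genes, so the sign of that median depends on the scaling.

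Nuclear genes of oxidative phosphorylation had 1 higher and 45 lower of 87, with summed levels of 7231 CPM in marrow cells and 13882 CPM in thymus cells and a median log2 of -1.03. Over all genes 6.16% were higher and 28.8% lower. Relative to all genes the median of the list was -0.47, with 3 higher and 9 lower. The ATP synthase gene atp5mc1 stood at 45.2 CPM in marrow cells and 290 CPM in thymus cells, 6.41-fold higher in the thymus (5.02 to 8.23). The cytochrome oxidase gene cox8b was the one that was higher, at 47.1 CPM in marrow cells and 1.35 CPM, or 1 UMI, in thymus cells, against 73.3 CPM in free RNA of the marrow. In the scale, counted with the same software as the thymus, cox8b had 1 UMI (1.81 CPM). The part of the software was not tested. Transcripts of the mitochondrial genome summed to 16731 CPM in marrow cells and 12283 CPM in thymus cells, with genes on either side. The oxidase subunit mt-co1 stood at 2728 CPM in marrow cells and 1405 CPM in thymus cells, and the complex I subunit mt-nd1 at 299.7 CPM in marrow cells and 490 CPM in thymus cells, a ratio of 0.611 (0.537 to 0.697). Of 15 glycolysis genes 0 were higher and 3 lower, a smaller share than over all genes, with a median of -0.09 relative to all genes. Among the 3, the hexokinase gene hk1 stood at 11.7 CPM in marrow cells and 59.3 CPM in thymus cells, and hk2 at 1.86 CPM in marrow cells and 35.0 CPM in thymus cells.

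Other lists lay closer to the shares over all genes. Of 37 cytoskeleton and migration genes 3 were higher and 11 lower, with a median log2 of -0.54, or 0.02 relative to all genes. Among them the actin regulator marcksl1a stood at 162 CPM in marrow cells and 971 CPM in thymus cells, and the filamin gene flna at 10.3 CPM in marrow cells and 49.8 CPM in thymus cells. Over the alternatives the log2 ratio of flna (-2.21) ranged from -4.07 to -0.15. Of 28 genes of antigen presentation 1 was higher and 8 lower, with a median of -0.45, or 0.11 relative to all genes. Of 18 survival genes 0 were higher and 4 lower, among them bcl2l1, an inhibitor of cell death, at 10.3 CPM in marrow cells and 49.8 CPM in thymus cells.

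**Figure D5:**
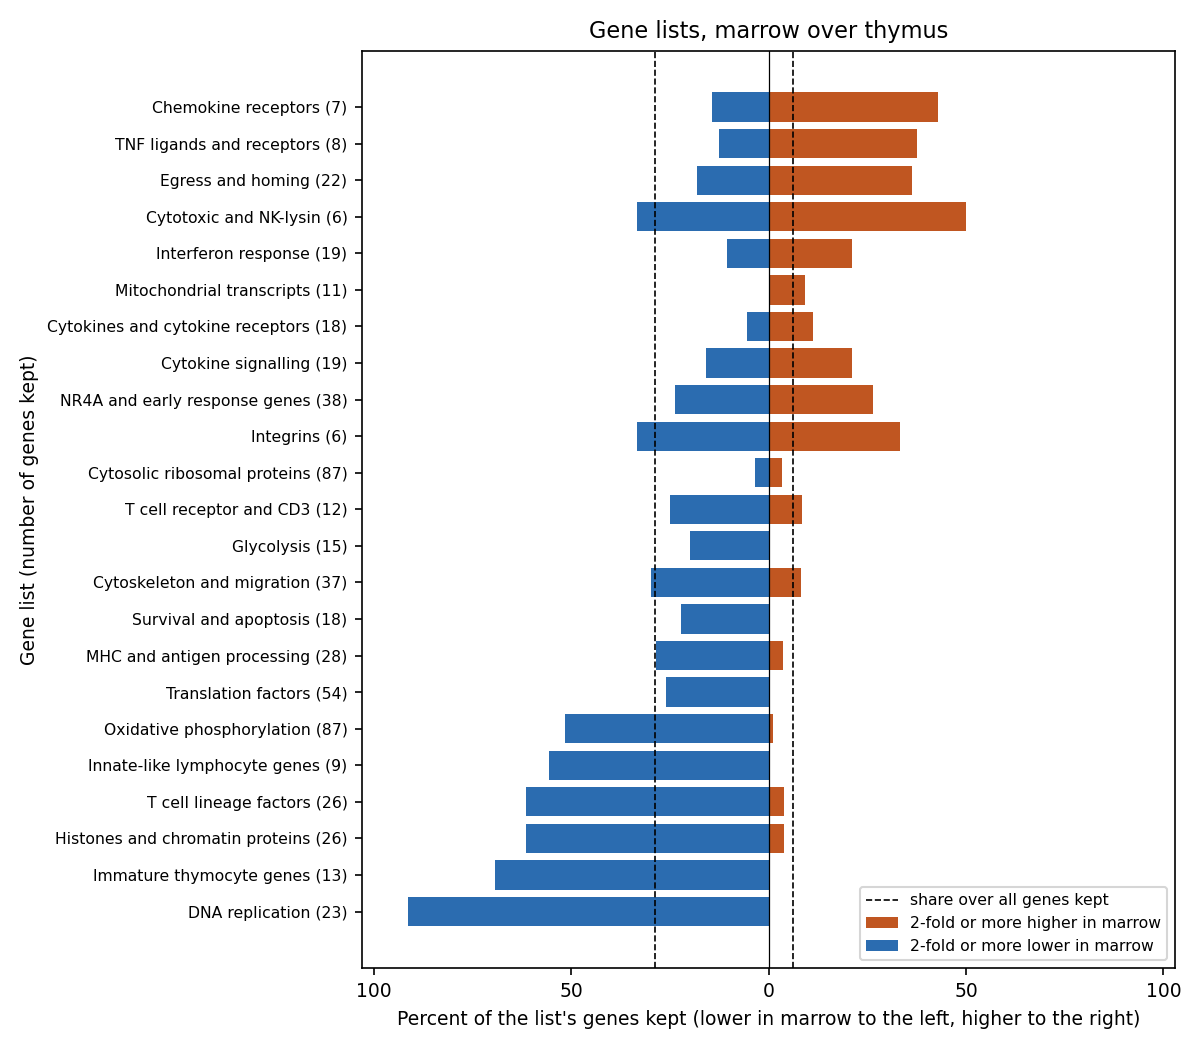
Percent of each gene list's kept genes (number in brackets) that were 2-fold or more lower (blue, to the left) or higher (orange, to the right) in the marrow; dashed lines mark the shares over all kept genes, 28.8% and 6.16%. DNA replication (21 of 23 lower) and immature thymocyte genes (9 of 13 lower) reach far beyond the left line, and egress and homing (8 of 22 higher) beyond the right one. Genes that passed the filter through the marrow alone (such as s1pr4 and klf3) or the thymus alone (such as tk1 and arpp21) are counted in these shares.

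Several of the 15 most different genes in each direction belong to none of these lists. The gene CR318588.1 (ENSDARG00000092191, current symbol si:dkey-238c7.13) stood at 16609 CPM in marrow cells (16437 to 16783) and 185 CPM in thymus cells (155 to 218), 89.99-fold higher (76.1 to 107). After thinning, a UMI of it was found in 81.0% of marrow cells and 5.28% of thymus cells. It stood at 6997 CPM in the scale, 154 CPM in rag1-positive thymus cells and 17552.5 CPM in marrow barcodes under 100 UMIs. A feature from the same clone, CR318588.4, named here after its values were seen, stood at 28513 CPM in the marrow, 3898 CPM in the thymus and 18354.5 CPM in the scale. The files give no function for either.

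Other genes without UMIs in the thymus were si:ch211-207g17.3 at 235 CPM in the marrow, the adaptor gene samsn1b at 105 CPM and si:dkey-183i3.6 at 89.5 CPM in the marrow, with 21.4% of the si:dkey-183i3.6 UMIs in 1 cell. The lipase gene lipia stood at 119 CPM in marrow cells and 1.35 CPM in thymus cells, and BX901920.1 at 519 CPM in marrow cells and 17.5 CPM in thymus cells. In the scale, samsn1b, si:dkey-183i3.6 and BX901920.1 stood at 162, 332 and 565 CPM, whereas lipia had 2 UMIs. Free RNA of the marrow held more si:dkey-183i3.6, at 93.6 CPM. It held lipia at 108 CPM, inside the interval of the marrow cells (105 to 135). For si:ch211-207g17.3, samsn1b and BX901920.1 free RNA stood lower, at 170, 61.8 and 395 CPM. The part of free RNA in these levels was not tested.

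On the thymus side, si:ch211-184m13.4 and si:ch211-106j24.1 (current symbol ANPEP, an aminopeptidase) had 0 UMIs in the marrow and 106 CPM and 105 CPM in the thymus, at least 76.1-fold and 75.2-fold higher there. The ETS factor gene etv5a stood at 0.466 CPM, or 1 UMI, in marrow cells and 105 CPM in thymus cells, where 6.21% of cells held it. The ubiquitin ligase gene znrf1 stood at 3.73 CPM in marrow cells and 256 CPM in thymus cells, 68.6-fold higher in the thymus (34.1 to 161). The deubiquitinase gene cyldb and the adhesion gene alcamb each had 1 UMI in the marrow and stood at 62.0 CPM and 74.1 CPM in the thymus. Also 0 in the marrow were ndrg2, at 57.9 CPM in the thymus, and the teneurin gene tenm3, at 55.2 CPM in the thymus. The remaining ones, rasa4, DUT, anks1b and fam117aa, stood at 0.466, 1.86, 0.932 and 3.73 CPM in the marrow, against 66.0, 99.7, 68.7 and 151 CPM in the thymus.

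Cells were also compared within coreceptor classes, unthinned, which held 171 marrow and 83 thymus cells with cd4-1 only, and 46 marrow and 92 thymus cells with cd8 only. In cells with cd4-1 only, s1pr4 stood at 285 CPM in the marrow with 0 UMIs in the thymus, klf2a at 112 CPM in marrow cells and 5.04 CPM in thymus cells, and cxcr4b at 2184 CPM in marrow cells and 222 CPM in thymus cells. In cells with cd8 only, s1pr4 stood at 364 CPM in the marrow with 0 UMIs in the thymus, klf2a at 170 CPM in marrow cells and 4.61 CPM in thymus cells, and cxcr4b at 2448 CPM in marrow cells and 244 CPM in thymus cells. For these 3 genes the direction was the same in both classes.

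The genes ccr9b and itgae.2 were lower in the marrow in both classes. In cells with cd4-1 only, ccr9b stood at 2.65 CPM in marrow cells and 287 CPM in thymus cells, and in cells with cd8 only at 34.1 CPM in marrow cells and 419 CPM in thymus cells. Levels of itgae.2 were 68.8 CPM in marrow cells and 615 CPM in thymus cells with cd4-1 only, and 73.8 CPM in marrow cells and 535 CPM in thymus cells with cd8 only. The factor id2a was lower in the marrow with cd4-1 only, at 3.97 CPM in marrow cells and 25.2 CPM in thymus cells (3 and 5 UMIs). With cd8 only it was higher, at 142 CPM in marrow cells and 27.7 CPM in thymus cells (25 and 6 UMIs). Of the id2a UMIs of all marrow members, 42.3% lay in 1 cell. Granzyme levels within the marrow were higher in the cd8 class: gzmk stood at 636 CPM with cd8 only and 259 CPM with cd4-1 only, and gzma at 176 CPM with cd8 only and 1.32 CPM with cd4-1 only. The ligand genes ccl36.1 and ccl38.6 had 2.65 and 5.29 CPM in marrow cells with cd4-1 only, and 435 and 186 CPM in marrow cells with neither coreceptor.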

How the data were processed

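Each library came as a matrix of raw UMI counts per gene and barcode, deposited by the authors without normalization. Per the file headers the marrow matrix was written by Cell Ranger 4 and the thymus and scale matrices by cellranger 6.0.0; the submitters' processing notes name Cell Ranger 6.0.0, Seurat 4.3.0 and GRCz11. The marrow matrix is unfiltered, the thymus matrix starts at 500 UMIs, so free RNA could be measured in the marrow only. The marrow minimum of 1395 UMIs is percentile 99 of the 3000 largest barcodes divided by 10.

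UMIs were summed over the chosen cells of each library and scaled per 1000000, in python 3.11.15 with numpy 2.4.6 and scipy 1.17.1. Genes with UMIs in at least 5% of cells of one side were kept, and the log2 ratio was taken with 3 UMIs added to each sum; printed folds have none added. Where one side had 0 UMIs, the fold is a bound that puts 3 UMIs there. Cells were thinned with seed 1. The ratio was tested on simulated data. Of 31900 Ensembl identifiers, 29177 were matched to current symbols. No doublet caller was run; leaving out cells over 3 times the median UMIs was an alternative. The cell rule, members and gene lists were chosen with earlier results of these data known. Named genes are the 15 largest log2 ratios in each direction with no more than 50% of the UMIs in 1 cell, the genes of the rule, the 4 largest of each list, and list members known for a role. Not all of the 4 largest of each list are given in the text.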

Additional observations from a re-analysis of the deposited data

Results flagged for a closer look

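The direction between marrow and thymus was opposite in the coreceptor classes for arglu1a and tpst1l. These 2 genes were flagged, with at least 20 UMIs in each class. The levels of id2a, given above, and ctsc were opposite as well. Both had fewer UMIs than that in cells with cd4-1 only and were not flagged. For ctsc there were 8 UMIs in the marrow and 0 in the thymus with cd4-1 only, and 5 and 62 with cd8 only. Of all thymus UMIs of ctsc, 44.6% lay in 1 cell. The log2 ratio of arglu1a, a splicing-related gene, was lower by -2.84 in cells with cd8 only than in cells with cd4-1 only. It had 100.6 CPM in marrow cells and 35.3 CPM in thymus cells with cd4-1 only, and 28.4 CPM in marrow cells and 106 CPM in thymus cells with cd8 only. For tpst1l the same difference was -2.95, from 43.7 CPM in marrow cells and 15.1 CPM in thymus cells with cd4-1 only, and 22.7 CPM in marrow cells and 111 CPM in thymus cells with cd8 only. For arglu1a and tpst1l each level rests on 3 to 76 UMIs, and the difference between the classes was not tested.

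Marrow barcodes under the UMI minimum that otherwise met the rule were not part of the comparison. Their 54 barcodes held 16 UMIs of s1pr4, or 344 CPM (196 to 558), above the limit of 64.4 CPM that 0 counts would allow. This is near the 342 CPM of the marrow cells that passed, and above the 197 CPM of marrow barcodes under 100 UMIs, with which its interval overlaps.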

How the results depend on the processing

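No paired analysis was possible because each group has 1 library. Among 122 named genes and 24 alternatives, 2272 of 2909 log2 ratios stayed within their counting interval, 626 moved beyond it, and 11 changed sign. A change of sign was counted only for the 110 named genes past 2-fold over all members. Genes higher in the marrow numbered 140 and genes lower 783 with cells thinned to 1000 UMIs, where fewer genes were kept. With a gene filter of 10% of cells the numbers were 183 and 731, and with median scaling 641 and 552. With a minimum of 3000 UMIs, 2592 were lower. In cells with cd4-1 only 163 were higher, and in cells with cd8 only 476. The gfp ratio was 0.141 at 3000 UMIs, 0.0886 thinned, 0.164 with median scaling and 0.150 in cells with cd4-1 only. The lck ratio was 0.763 at 3000 UMIs, 0.405 thinned, 0.755 with median scaling and 0.420 with each cell weighted the same. The cause of these moves was not tested.

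Thinning moved the shares. Unthinned, cd4-1 only, cd8 only and neither were found in 32.6, 8.76 and 58.5% of marrow cells. In the thymus, cd8 only, both and neither were then found in 28.6, 17.4 and 28.3%. At 3000 UMIs, cd4-1 only and neither were found in 29.6 and 63.5% of marrow cells, and cd8 only and both in 31.0 and 5.63% of thymus cells.

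Alternatives chosen after seeing the data were these. Without cells with an arpp21 UMI and at 3000 UMIs, 180 genes were higher and 2990 lower, with ratios of 0.154 for gfp and 0.754 for lck. Adding the 3 UMIs in proportion to the totals gave 381 higher and 1208 lower genes over all members. At 3000 UMIs it gave 508 higher and 1702 lower, and in cells with cd4-1 only 512 higher and 1263 lower. The ratios of gfp and lck do not use the added UMIs.

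The sign changes given here are those of named genes past 2-fold over all members. Sign changed in cells with cd4-1 only for ccl36.1 and tnfsf14 (log2 -1.19 each), ccl38.6 (-0.71), gzma (-1.51) and si:dkey-183i3.6 (-0.054), which hold few UMIs there. Adding 3 UMIs to unequal totals draws such genes toward the smaller total. In cells with cd8 only, fas (0.30, from 4 UMIs on each side) and id2a (1.94) changed sign, also with the proportional addition, at 0.17 and 1.87. That addition also turned cd4-2.2 at 3000 UMIs (0.12) and ctsc in cells with cd4-1 only (1.42, from 8 and 0 UMIs). Some genes within 2-fold over all members changed sign as well. Over the alternatives foxp3a (0.44) ranged from -1.75 to 1.14, and foxp3b (-0.44) from -0.86 to 0.12.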
